A study of Mus musculus with 7 samples.

Results

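Hyaluronan is a long unbranched sugar polymer of the extracellular matrix, and 10 genes that make it, cut it, bind it in the matrix or receive it at the cell surface were examined in C3H10T1/2 cells. They were chosen by name from the deposited table of 54532 features. Has1, Has2 and Has3 encode the synthases, Hyal1, Hyal2 and Cemip proteins of its breakdown, Vcan (versican), Hapln1 and Prg4 (lubricin) secreted matrix proteins, and Cd44 the main surface receptor. All 10 had counts, and 9 passed the filter on low counts. Only Hapln1 did not.

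C3H10T1/2 is an established mouse line of mesenchymal, fibroblast-like cells, and both groups come from this 1 line. The control group held 3 libraries of untreated cells. The OB group held 4 libraries of cells induced towards the osteoblast fate for 3 days. The induction medium held dexamethasone, which acts through the glucocorticoid receptor, with 10 mM β-glycerophosphate and 50 µM ascorbic acid. Messenger RNA was sequenced, and total counts on genes were 21213328 to 46530017 per library.

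Hyaluronan differs from other glycosaminoglycans in being spun out through the plasma membrane by its synthases, which draw on cytosolic UDP-glucuronic acid and UDP-N-acetylglucosamine, without a protein core. Versican, a large chondroitin sulphate proteoglycan, binds it through a link module, and HAPLN1 locks such complexes together. In mesenchymal tissue this pericellular coat is known for its part in cell migration, proliferation and the early condensation of skeletal precursors.

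Of these genes 2 were higher after induction. Vcan, already the most abundant of them, rose about 4-fold, and Prg4, a rare transcript, rose about 8-fold. The synthases, the hyaluronidases, Cemip and Cd44 did not pass the test in either direction. By edgeR's quasi-likelihood test 2 of the 9 tested genes were higher in OB and 0 lower at an adjusted p under 0.05, 22.2%, where 8.04% of all 15441 genes tested were called (4.32% higher and 3.72% lower). At an unadjusted p under 0.05 the number was 3 of 9, the third being Has3, beside 25.2% of all genes. DESeq2 and limma-voom, which called 12.9% and 15.1% of the genes they tested, each called Vcan and Prg4 and no other of the 10. The call of Prg4 was the less firm. Over 16 alternatives in processing or in the libraries used, described below, Vcan kept its call in 15 and Prg4 in 9. The median log2 fold change was 0.02 over the 9 genes and 0.00 over all genes tested.

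**Figure D1:**
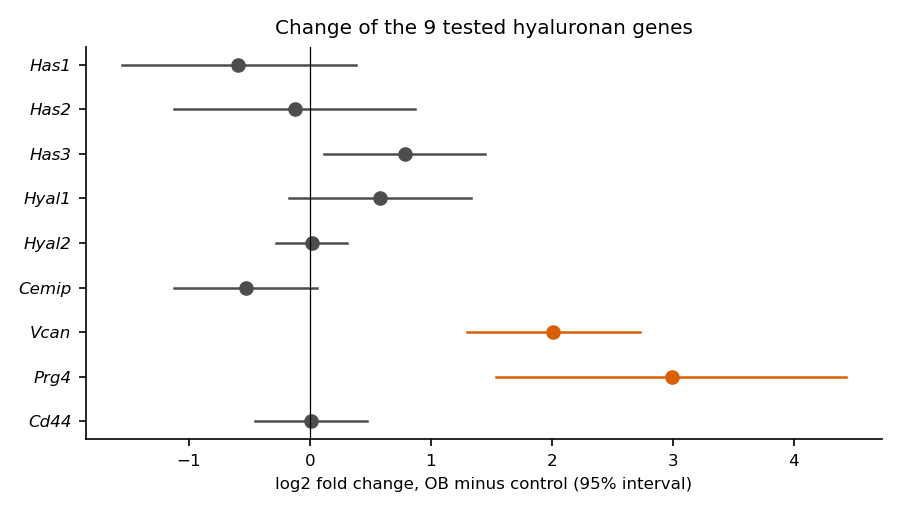
Log2 fold change of OB against control by edgeR for the 9 tested hyaluronan genes, with 95% intervals from the fit as lines. Orange marks the 2 genes past the threshold, Vcan at 2.01 and Prg4 at 2.99, and the intervals of all others except Has3 include 0.

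Some features of the libraries bear on every value below. The columns of the table are only numbered, so every group assignment rests on the input order that its header gives. Descriptions of the libraries fall into label sets of unstated meaning. Control 1 and OB 1 begin with C1 and control 2 and OB 2 with C2, whereas the descriptions of control 3, OB 3 and OB 4 lack a C number. In bulk RNA, fewer cells of a type and less RNA per cell cannot be told apart. Control 3 lay apart on the first principal component of log2 CPM, at -96.9 against -23.0 and -25.3 for the other controls. The glucocorticoid target Fkbp5 ranged over 14.5 to 49.3 CPM in control and 358 to 444 CPM in OB, and Tsc22d3 at 29.8 to 46.7 and 403 to 592 CPM. The proliferation marker Mki67 was read at 170, 405 and 548 CPM in the respective controls, and the OB libraries gave 60.1 to 115 CPM. The 13 stromal markers were all present, with summed levels of 30700 to 40000 CPM in control and 23700 to 33800 CPM in OB. Markers of macrophages summed to 10.4 to 14.1 and 7.94 to 13.5 CPM, with Adgre1 and Tyrobp at 0 counts in every library. Those of epithelium summed to 1.59 to 4.02 and 1.07 to 1.91 CPM, with Epcam and Cldn4 at 0. The 9 endothelial markers summed to 4.17 to 18.1 and 9.46 to 24.1 CPM, and 0 of the 9 were without counts.

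The promoter of Vcan is shown because it belongs to the gene that changed most in absolute level, and that of Cd44 because Cd44, which binds the same polymer, had nearly equal means in both groups. Each stretch is the 250 bases before the RefSeq start on GRCm38.p6, on the minus strand, with Vcan at chr13:89742513-89742762 and Cd44 at chr2:102901666-102901915. Capitals mark CCAAT boxes (CCAAT, read on either strand) and GC boxes (GGGCGG, either strand).
Vcan: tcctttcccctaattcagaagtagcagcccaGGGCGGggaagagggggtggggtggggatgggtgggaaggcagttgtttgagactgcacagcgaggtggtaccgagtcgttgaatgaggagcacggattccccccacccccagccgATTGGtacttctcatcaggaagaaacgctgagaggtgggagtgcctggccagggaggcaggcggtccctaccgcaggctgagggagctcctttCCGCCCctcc
Cd44: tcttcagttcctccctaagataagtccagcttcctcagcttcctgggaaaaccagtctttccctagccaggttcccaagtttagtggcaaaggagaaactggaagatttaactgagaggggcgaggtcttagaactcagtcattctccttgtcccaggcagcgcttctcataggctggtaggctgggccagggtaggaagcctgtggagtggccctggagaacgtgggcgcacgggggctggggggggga
The Vcan stretch held 1 CCAAT box, starting 103 bases before the start, and 2 GC boxes, while the Cd44 stretch held none of either. A CCAAT box was in 33.8% and a GC box in 32.7% of the 32851 RefSeq promoter windows searched. The G and C content was 62.4% for Vcan and 56.4% for Cd44, against a median of 52.4%. RefSeq promoters were found for 7 of the 10 genes (Vcan, Cd44, Hapln1, Has1, Hyal1, Hyal2 and Cemip). Of these, 3 held a CCAAT box (Vcan, Hyal1 and Has1) and 4 a GC box (Vcan, Hyal1, Hyal2 and Cemip), and Hyal1, which did not pass the test, held as many of each as Vcan. None of the 7 held the glucocorticoid receptor half-site AGAACA on either strand, which 16.1% of all promoters held, or the full glucocorticoid receptor palindrome, which contains that half-site and was in 0.00913% of them. The AP-1 motif TGANTCA and the TCF/LEF motif CTTTGA were in 0 of the 7 as well, and in 6.75% and 13.8% of all promoters. A TATA box (TATAAA) was found in Cemip alone of the 7, and in 12.4% of all. These are matches of letters in a short window and show no binding.

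Of the 9 tested genes, Vcan changed most in absolute level and Prg4 most in fold. The level of Vcan was 946, 795 and 590 CPM in control 1, 2 and 3, where CPM is counts per 1000000 counts of the scaled library total. In OB 1 to 4 it was 2640, 1870, 3940 and 4090 CPM. Every OB library lay above every control library, with OB 2 the lowest and OB 3 and OB 4 the highest. The groups did not overlap for 25.5% of all genes tested, and for 13.2% with OB above. The means were 777 ± 179 CPM (SD, n = 3) and 3140 ± 1070 CPM (SD, n = 4), and the log2 fold change was 2.01 ± 0.31 (SE, edgeR adjusted p = 0.0127), a fold of 4.04 with a 95% interval of 2.46 to 6.63. Of the 667 genes called higher 3, Vcan among them, reached its mean CPM in OB, and 201 had a larger log2 fold change. Vcan took 0.0579% to 0.0955% of all counts in the control libraries and 0.183% to 0.419% in the OB libraries. Its rank among all features by CPM was 98, 132 and 212 in the controls and 22, 35, 11 and 10 in OB 1 to 4.

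The rise of Vcan differed in size between the sets of libraries. Among those whose description starts with C1 or C2 the ratio of mean CPM was 2.59, and among those with no C number it was 6.81. The interaction of treatment and set was 1.39 ± 0.29 on the log2 scale (SE, edgeR adjusted p = 0.0452), and 6.5% of all genes tested passed this test. The second set holds 1 control library, control 3, which had the lowest Vcan level of all 7 libraries. Among the C1 and C2 libraries alone the log2 fold change was 1.38 (edgeR adjusted p = 0.0211). Among those with no C number it was 2.75, a value with a single control library behind it. Mki67 was lower in OB in both sets, and its part in the Vcan result was not tested.

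Leaving out control 2 moved Vcan to an adjusted p of 0.0519 at a log2 fold change of 2.02. The call held without each other library, with log2 fold changes of 1.84 to 2.20 over all 7 omissions, and under a block on replicate number (1.81, edgeR adjusted p = 0.0275). Counts were taken per gene, so splice forms could not be separated. Vcan has 9 annotated transcripts in GENCODE M21, 8 of them protein coding, which by alternative splicing differ in the chondroitin sulphate attachment regions.

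**Figure D2:**
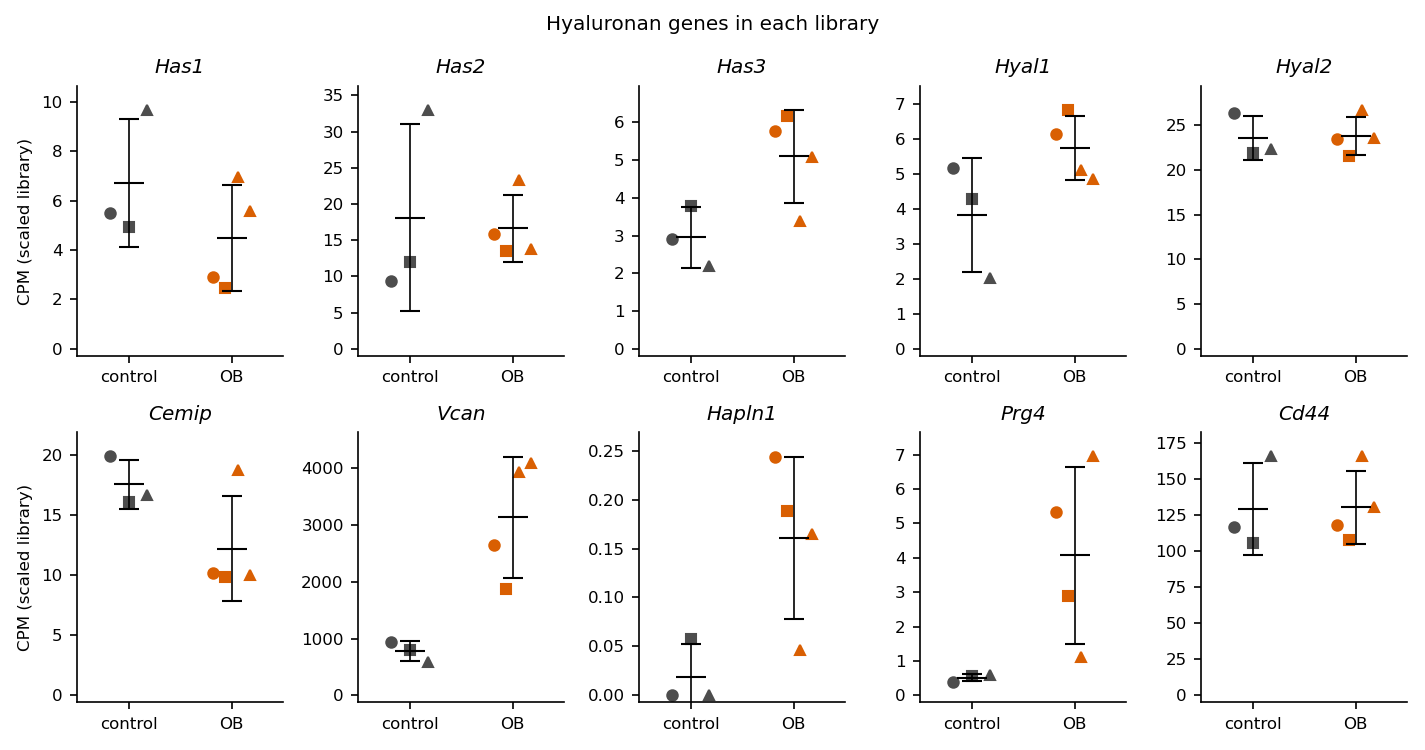
CPM of each of the 10 genes in every library, on linear axes that differ between panels, with control in grey and OB in orange. Circles are C1 libraries, squares C2 libraries and triangles libraries with no C number, and bars give the mean and SD (n = 3 and n = 4). Only Vcan and Prg4 have every OB library above every control library.

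Prg4 encodes lubricin, a mucin-like protein that lubricates joint surfaces together with hyaluronan. It stood at 0.383, 0.570 and 0.595 CPM in the controls, from 15 to 20 counts per library. In OB 1 to 4 it was 5.33, 2.89, 1.11 and 6.95 CPM, from 131, 123, 24 and 168 counts. The groups did not overlap, but OB 3 was close to the controls and the OB libraries spanned 6.25-fold, against 1.55-fold in control. The log2 fold change was 2.99 ± 0.63 (SE, edgeR adjusted p = 0.0297), a fold of 7.92 with a 95% interval of 2.92 to 21.5. This call ended under the replicate block (log2 fold change 2.44, edgeR adjusted p = 0.0613) and without any library except OB 3 (adjusted p = 0.0534 to 0.0959 without control 1, 2 or 3 or OB 1, 2 or 4). Of its exon bases 4.77% overlap other genes, mostly Tpr on the opposite strand. Of 13 markers of synovial lining and cartilage, which include Prg4 itself, 10 were tested. By edgeR 2 of these were higher, Prg4 and Col11a2, and 0 were lower. Col11a2 was named after its value was seen. Over all genes tested 4.32% were called higher. The median log2 fold change was 0.68 over the tested markers and 0.00 over all genes tested. The summed level of the 13 markers was 547 to 905 CPM in control and 507 to 899 CPM in OB, and their part in the Prg4 result was not tested.

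Hapln1, the link protein gene, was at the edge of detection. It had 0, 2 and 0 counts in control 1, 2 and 3 and 6, 8, 1 and 4 counts in OB 1 to 4. Pooled over libraries this is 0.0186 CPM (95% exact Poisson interval 0.00226 to 0.0673) in control and 0.168 CPM (0.101 to 0.263) in OB. The ratio of pooled CPM was 9.03, with an exact binomial interval of 2.18 to 79.9. These intervals cover counting error only, and OB 3 with 1 count lay below control 2 in CPM. DESeq2, which tested the gene, gave a log2 fold change of 3.09 and an adjusted p of 0.153. On chromosome 13 Hapln1 ends 43.7 kb before Vcan begins in coordinate order, and both lay higher in OB in pooled level, at 0.168 CPM for Hapln1 against a mean of 3140 CPM for Vcan.

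The synthases showed no common direction. HAS2 is known as the main synthase of mesenchymal cells, and Has2 was the most abundant of the family here. Control 1, 2 and 3 read 9.39, 12.0 and 33.0 CPM for Has2, and OB 1 to 4 read 15.9, 13.5, 23.3 and 13.8 CPM. Control 3 was the highest of all 7 libraries, and the groups overlapped. The log2 fold change was -0.12 ± 0.43 (SE, edgeR adjusted p = 0.887), with a 95% interval from -1.12 to 0.87. Its direction rested on control 3, without which the value was 0.62 (edgeR adjusted p = 0.191). The C1 and C2 libraries alone gave 0.46 (adjusted p = 0.183), against -0.85 among those with no C number, where control 3 is the single control, while the interaction with the set was -1.29 ± 0.41 (edgeR adjusted p = 0.105). Of the Has2 exon bases 4.3% overlap other genes, mostly its antisense gene Has2os.

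Has1, which encodes an isoenzyme of lower activity, stood at 5.51, 4.95 and 9.68 CPM in the controls and at 2.89, 2.47, 6.95 and 5.59 CPM in OB 1 to 4. Within each set every OB library lay below every control library, but over all 7 libraries the groups overlapped. The sets are small, and the share of all genes with this pattern was not computed. The log2 fold change was -0.59 ± 0.42 (SE, edgeR adjusted p = 0.419). With the label set as a block it was -0.83 and passed the edgeR test (adjusted p = 0.0298), and with the replicate block it was -0.80 (edgeR adjusted p = 0.0888).

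Has3, whose enzyme is known for making shorter chains, stood at 2.90, 3.79 and 2.18 CPM in the controls and 5.77, 6.16, 3.38 and 5.09 CPM in OB. The OB libraries were higher except for OB 3, which lay below control 2. The log2 fold change was 0.79 ± 0.29 (SE), with an unadjusted p of 0.0265 that did not pass after adjustment (edgeR adjusted p = 0.139). It passed with the label set as a block (0.89, edgeR adjusted p = 0.0414). Of the Has3 exon bases 5.52% overlap other genes, mostly Chtf8 on the opposite strand.

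Because these genes differ in length, the make-up of the family was taken from CPM per kilobase of exon. Has2 held 65.2% ± 9.65 (SD, n = 3) of the summed synthase level in control and 68.2% ± 4.89 (SD, n = 4) in OB. Has1 held 25.5% ± 5.37 and 16.9% ± 5.91, and Has3 9.36% ± 5.27 and 14.9% ± 5.76. The shares of each gene overlapped between the groups. The summed level was 3.89, 4.53 and 10.3 CPM per kilobase in control 1, 2 and 3 and 5.30, 4.69, 7.57 and 5.29 in OB 1 to 4. Vcan per kilobase was 16.8, 12.1 and 3.97 times this sum in the controls and 34.4, 27.6, 36.0 and 53.6 times in OB.

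**Figure D3:**
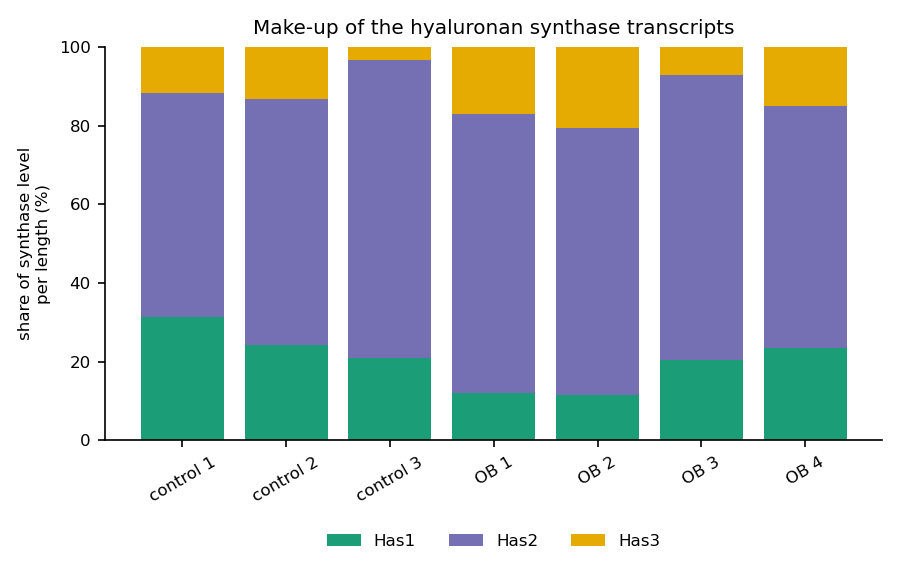
Share of the summed per-length synthase level (percent) held by Has1, Has2 and Has3 in each of the 7 libraries, stacked to 100. Has2 is the largest part in every library, from 57.0% in control 1 to 75.8% in control 3.

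No transcript for hyaluronan breakdown passed the test. Hyal2, which encodes a membrane-anchored hyaluronidase that cleaves long chains, had 26.4, 21.9 and 22.3 CPM in the controls and 23.4, 21.6, 26.7 and 23.6 CPM in OB 1 to 4. It was the most even of the 9 tested genes, and its log2 fold change of 0.02 ± 0.13 (SE, edgeR adjusted p = 0.954) had a 95% interval of -0.28 to 0.31, or 0.823-fold to 1.24-fold. Hyal1, the lysosomal hyaluronidase gene, had 5.17, 4.27 and 2.02 CPM in the controls and 6.14, 6.82, 5.10 and 4.84 CPM in OB. Control 3 was the lowest and 2 of the OB libraries lay below control 1. Its log2 fold change was 0.58 ± 0.32 (SE, edgeR adjusted p = 0.311). It was 1.28 among the libraries with no C number, where control 3 is the single control. Hyal1 is the least certain of these measurements, because 51.9% of its exon bases overlap other genes, mostly Naa80 on the same strand, where fragments that overlap both were not counted. Hyal1 and Hyal2 lie 4.1 kb apart on chromosome 9.

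Cemip encodes a protein needed for the breakdown of high-molecular-weight hyaluronan in fibroblasts. The controls had 19.9, 16.1 and 16.7 CPM of Cemip, and OB 1 to 4 had 10.2, 9.85, 18.8 and 10.0 CPM. OB 1, 2 and 4 lay below every control, and OB 3 lay among the controls. The log2 fold change was -0.53 ± 0.26 (SE, edgeR adjusted p = 0.241). Without OB 3 it was -0.81 and passed the edgeR test (adjusted p = 0.0429), as it did among the C1 and C2 libraries (-0.85, adjusted p = 0.0363). Within the per-length level of Hyal1, Hyal2 and Cemip, Hyal2 held 74.7% ± 2.94 in control (SD, n = 3) and 74.2% ± 2.41 in OB (SD, n = 4). The share of Cemip was 14.5% to 15.8% in the control libraries and 8.7% to 14% in the OB libraries. These did not overlap, but OB 3 at 14% lay close to control 2 at 14.5%. That of Hyal1 averaged 10.3% ± 3.61 and 15.7% ± 3.31, and its libraries overlapped. These shares were not tested. Hyal1 was divided by its whole exon length, although 51.9% of it overlaps other genes. Its share may thus be too low, and those of Hyal2 and Cemip too high.

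Cd44, the receptor gene, was nearly level, with 117, 106 and 166 CPM in the 3 controls and 118, 108, 166 and 131 CPM in OB 1 to 4. The C1 and C2 libraries of both groups lay at 106 to 118 CPM. Of those with no C number, control 3 and OB 3 read 166 CPM and OB 4 read 131 CPM. The log2 fold change was 0.01 ± 0.20 (SE, edgeR adjusted p = 0.977), with a 95% interval of 0.733-fold to 1.39-fold. The ratio of Vcan to Cd44 per kilobase was 3.80, 3.50 and 1.67 in the controls and 10.5, 8.11, 11.1 and 14.6 in OB. Cd44 has 9 annotated transcripts in GENCODE M21, and its variant exons, like those of Vcan, could not be told apart in counts per gene.

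Per kilobase of exon, the order of the means in control was Vcan (53.7 CPM per kilobase), Cd44 (19.1), Hyal2 (7.14), Has2 (4.28), Has1 (1.49), Cemip (1.44), Hyal1 (1.01), Has3 (0.463), Prg4 (0.121) and Hapln1 (0.00322). In OB it was Vcan (217), Cd44 (19.3), Hyal2 (7.23), Has2 (3.92), Hyal1 (1.52), Cemip (0.997), Has1 (0.990), Prg4 (0.951), Has3 (0.800) and Hapln1 (0.0273). The first 4 places were the same in both groups. Hyal1 may be placed too low, because its level was divided by its whole exon length, overlapping bases included. Neighbours from Has1 to Has3 in control, and from Hyal1 to Has3 in OB, overlapped in their libraries, so that their order is not set beyond the spread. Has2 overlapped Hyal2 in control (2.22 to 7.78 against 6.65 to 8.02 CPM per kilobase) and not in OB (3.18 to 5.50 against 6.55 to 8.09).

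Around these genes, 110 others were drawn from 7 lists of hyaluronan and versican biology. Of the 82 tested, 9 passed (11%, against 8.04% of all genes), 8 of them higher in OB and 1 lower, and the median log2 change was 0.06. The gene that fell was Hmmr, a receptor gene that also acts in mitosis.

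Among genes that supply UDP-sugars, 2 of 16 tested were higher and 0 lower (median 0.01). Gfpt2, an isoenzyme of the rate-limiting amidotransferase of the hexosamine pathway, averaged 1.74 ± 0.345 CPM in control and 4.89 ± 1.26 CPM in OB (SD, n = 3 and n = 4), and its rise was 1.49 ± 0.28 on the log2 scale (SE, edgeR adjusted p = 0.0225). Its paralogue Gfpt1 was far more abundant at 121 ± 2.94 and 125 ± 23.4 CPM, and Ugdh, which makes UDP-glucuronic acid, stood at 287 ± 35.2 and 248 ± 22.5 CPM. Neither passed (edgeR adjusted p = 0.906 and 0.334), and both were picked out after their values were seen. Uap1l1, a homologue of the enzyme that makes UDP-N-acetylglucosamine, rose from 105 ± 15.4 to 164 ± 13.6 CPM (0.64 ± 0.13, edgeR adjusted p = 0.0281). The call of Gfpt2 ended without control 1, control 2, OB 1, OB 3 or OB 4 (adjusted p up to 0.0908), and that of Uap1l1 without any library except control 3 (up to 0.101).

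Of other genes of hyaluronan breakdown, 2 of 5 tested were higher and 0 lower (median 0.56), while Hyal4, Hyal5, Hyal6 and Spam1 had 0 counts in every library. Hexa, which encodes a lysosomal hexosaminidase chain that trims the released fragments, averaged 116 ± 24.8 CPM in control and 228 ± 29.0 CPM in OB (SD, n = 3 and n = 4). Its rise was 0.97 ± 0.18 on the log2 scale (SE, edgeR adjusted p = 0.0196). Hexa no longer passed on leaving out control 2, OB 1 or OB 2 (adjusted p up to 0.0659).

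Of other receptor genes, 2 of 6 tested were higher and 1 lower (median 0.30). Hmmr, whose protein binds hyaluronan at the surface and the spindle inside dividing cells, had 38.3, 102 and 110 CPM in the 3 controls, against 14.8, 19.7, 23.9 and 27.0 CPM in OB 1 to 4. It fell by 1.97 on the log2 scale (SE 0.36, edgeR adjusted p = 0.0200). Beside it, all 15 genes of a cell cycle list were called lower, against 3.72% of all genes tested. Their summed level was 1100, 2800 and 3110 CPM in the controls and 479 to 711 CPM in OB. The part of cell division in the Hmmr result was not tested. Layn (layilin) rose from 34.3 ± 3.81 to 56.9 ± 8.16 CPM (0.73 ± 0.14, edgeR adjusted p = 0.0239), and Tlr4, a pattern receptor reported to sense hyaluronan fragments, from 29.6 ± 2.64 to 51.2 ± 9.71 CPM (0.79 ± 0.16, edgeR adjusted p = 0.0276). The calls of Hmmr, Layn and Tlr4 ended without control 2 or OB 1 (adjusted p up to 0.0695, 0.0751 and 0.101), those of Hmmr and Layn without OB 2, that of Layn without control 1 or OB 3, and that of Tlr4 without control 3. Hmmr also missed the threshold among C1 and C2 libraries (edgeR adjusted p = 0.0601).

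No other gene listed as hyaluronan-binding passed, with 0 of 6 tested called by edgeR. The 2 most abundant were Ptx3 and Habp4. Ptx3, a pentraxin that helps to crosslink hyaluronan, stood at 360 ± 164 CPM in control and 243 ± 112 CPM in OB (edgeR adjusted p = 0.429). With the label set as a block Ptx3 passed as lower (-0.39, edgeR adjusted p = 0.0383). Habp4 stood at 79.0 ± 5.55 and 70.8 ± 2.71 CPM (edgeR adjusted p = 0.316). The other 11 genes of this list were too rare to test, among them the other lectican genes Acan (0 counts in control and 2 in OB), Bcan (4 and 3) and Ncan (9 and 13), which were picked out after their values were seen.

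Partners and proteases of versican included 1 higher gene of 14 tested and 0 lower (median 0.22). Tnc (tenascin C) rose from 134 ± 16.1 to 310 ± 90.2 CPM (1.21 ± 0.24, edgeR adjusted p = 0.0248), a call that ended without control 1, control 2, OB 1 or OB 4 (adjusted p up to 0.0871). Adamts1, which encodes a protease that cleaves versican, stood at 1130 ± 506 and 1860 ± 570 CPM (0.71 ± 0.34, edgeR adjusted p = 0.241). The other tested Adamts genes of this list, named after their values were seen, went both ways without passing in edgeR. Adamts4 was at 0.80, Adamts9 at 0.34 and Adamts15 at 2.92 (edgeR adjusted p = 0.333, 0.835 and 0.102). Adamts5 was at -0.85 and Adamts16 at -1.38 (edgeR adjusted p = 0.125 and 0.0751). DESeq2 called Adamts5, Adamts15 and Adamts16, and limma-voom called Adamts16. Ogn (osteoglycin) stood at 704 ± 424 and 1950 ± 544 CPM and did not pass (1.47 ± 0.47, edgeR adjusted p = 0.0983). It did pass in edgeR under the replicate block (1.79, adjusted p = 0.0224), the label-set block (adjusted p = 0.00906) and among C1 and C2 libraries (adjusted p = 0.0162). DESeq2 (adjusted p = 0.00943) and limma-voom (adjusted p = 0.0428) called it too. It did not pass with other scalings, with no filter or with any library left out (edgeR adjusted p = 0.0666 to 0.209).

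Enzymes that build chondroitin sulphate chains, which versican carries, included 1 higher gene of 23 tested and 0 lower (median 0.07). Chst15, whose sulphotransferase makes the disulphated chondroitin sulphate E unit, averaged 6.51 ± 0.172 CPM in control and 16.7 ± 3.36 CPM in OB, a rise of 1.36 ± 0.19 on the log2 scale (SE, edgeR adjusted p = 0.0105) that passed under each of the 16 alternatives. The most abundant of the genes that did not pass were Fam20b at 135 ± 5.45 and 120 ± 9.25 CPM and Chpf at 126 ± 24.2 and 111 ± 19.4 CPM (edgeR adjusted p = 0.324 and 0.562). Of the genes for CD44 shedding, linkage to the cytoskeleton and splicing, 0 of 12 tested passed by edgeR (median 0.02). Mmp14, a membrane protease that sheds CD44, stood at 532 ± 133 and 912 ± 169 CPM (0.78 ± 0.21, edgeR adjusted p = 0.0641). Mmp14 did pass in edgeR under the replicate block (0.88, adjusted p = 0.0185), the label-set block (adjusted p = 0.00503) and among C1 and C2 libraries (adjusted p = 0.0317). DESeq2 (adjusted p = 0.0124) and limma-voom (adjusted p = 0.0428) called it too. It did not pass with other scalings, with no filter or with any library left out (edgeR adjusted p = 0.0669 to 0.148). Msn (moesin), an actin linker, stood at 752 ± 203 and 585 ± 23.7 CPM (edgeR adjusted p = 0.232).

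**Figure D4:**
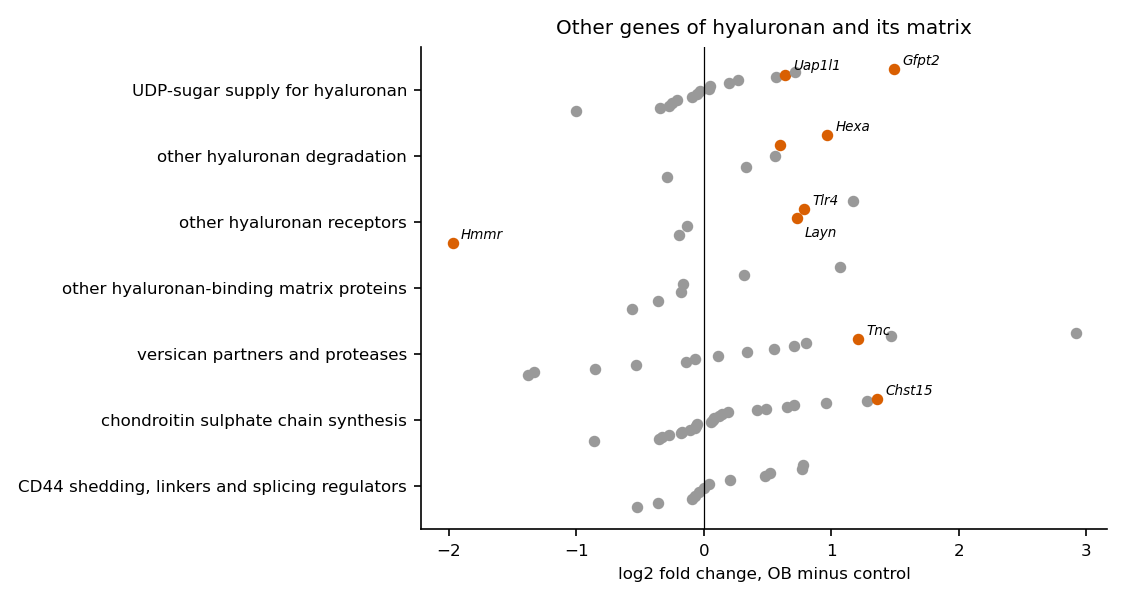
Log2 fold change of OB against control by edgeR for the tested genes of the 7 lists, 1 point per gene, with genes past the threshold in orange and those described in the text named. Of the 82 genes, 8 orange points lie right of 0 and 1, Hmmr at -1.97, lies left. The list labelled as other hyaluronan-binding matrix proteins and that of CD44 have none.

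**Figure D5:**
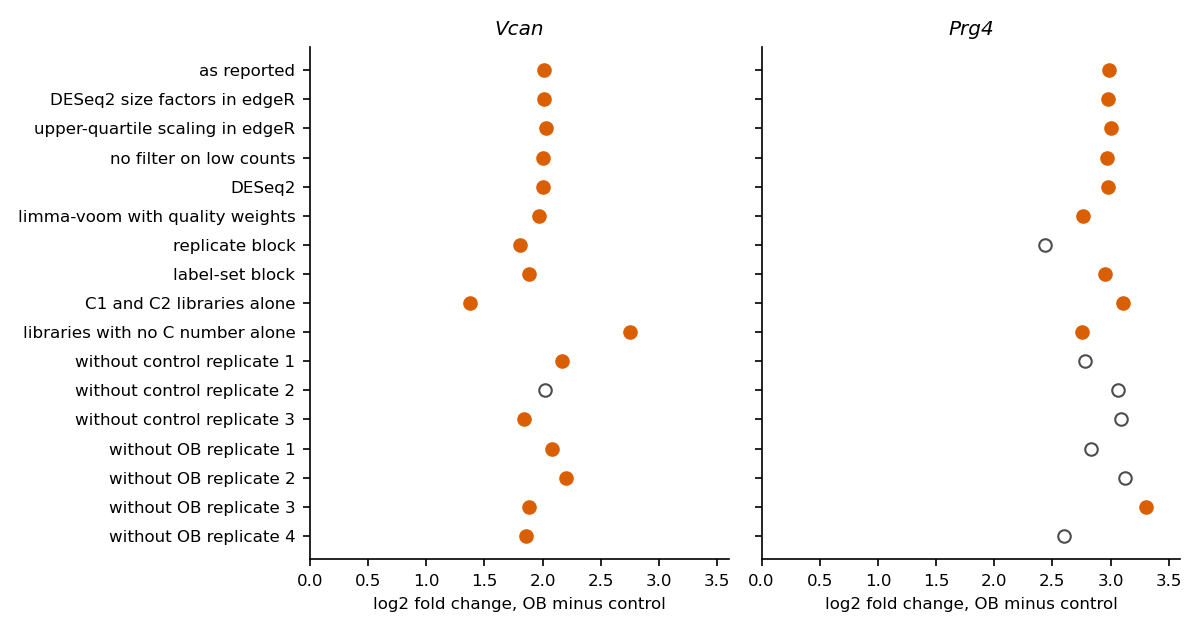
Log2 fold change of Vcan and Prg4 as reported and under 16 alternatives, with filled orange points where the adjusted p is under 0.05 and open points where it is not. Vcan lies between 1.38 and 2.75 and is open without control 2, while Prg4 lies between 2.44 and 3.30 and is open under the replicate block and without each library other than OB 3.

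In coordinates of mm10, as the deposited table gives them, Vcan (ENSMUSG00000021614) lies at 89655312 to 89742509 on chromosome 13 and Prg4 (ENSMUSG00000006014) at 150449412 to 150466165 on chromosome 1. Has2 (ENSMUSG00000022367) lies at 56665627 to 56694539 on chromosome 15, Has1 (ENSMUSG00000003665) at 17843323 to 17855205 on chromosome 17 and Cd44 (ENSMUSG00000005087) at 102811141 to 102901665 on chromosome 2. Counts were taken over exons, untranslated regions included. No exon base of Vcan, Cd44, Has1, Hyal2, Cemip or Hapln1 overlaps another gene of the table.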

How the data were processed

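TruSeq v2 libraries, which do not mark strand, were made from mRNA of Trizol extracts, per the labels. The authors counted fragments with featureCounts 1.6.4 on Ensembl 94 exons, per the file headers, with no option set for strand, multi-mapping or overlap. The deposited counts are unnormalised. The submitters' processing notes name Trimmomatic, HISAT2 and mm10, with versions not given in the sources used here. The deposited exon length served for levels per kilobase. Symbols were found for 54409 of 54532 features.

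The test was that of edgeR 4.0.16 in R 4.3.3 (filterByExpr, TMM, quasi-likelihood test, Benjamini-Hochberg adjustment over 15441 genes, threshold 0.05). The SE is the absolute log2 fold change divided by the square root of F, and 95% intervals use it with the fit's degrees of freedom. On simulated counts 81.9% of genes changed by 2 on the log2 scale and 29.6% of those changed by 1 were recovered. The simulation changed only 94 and 98 of 15139 genes, respectively, and had no label sets, so recovery in the real libraries may differ. A count of 3 equals 0.0639 to 0.139 CPM per library.

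The 10 genes and the lists were chosen with earlier results of these data known. All 10 are named, and of each list up to 4 called genes in order of p, or the 2 most abundant where fewer than 2 passed, except 1 called gene that is not reported here. Alternatives were 2 other scalings, no filter, DESeq2 1.42.0, limma-voom (limma 3.58.1), blocks, label sets alone and leaving out each library. Deviations from group means correlated at 0.17, 0.52 and 0.40 between control and OB libraries of replicate numbers 1, 2 and 3. The main test took no pairs. The block on replicate number was run as an alternative, and Prg4 did not pass under it. Other numbers correlated too, control 2 with OB 1 at 0.21, control 3 with OB 4 at 0.27 and control 1 with OB 2 at 0.10, all of them either both with or both without a C number, so that number and label set are not separated. OB 4 has no partner. Replicates are called biological in the series' design text, but no separate cultures are described, so the p-values cover spread among libraries that may be technical.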

Additional observations from a re-analysis of the deposited data

Results flagged for a closer look

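Among the 4 OB libraries Cemip stood at 18.8 CPM in OB 3 and at 9.85 to 10.2 CPM in the others, a gap wide enough to mark OB 3 as apart by Dixon's criterion, which chance meets in about 1 of 20 groups. The rise of Vcan was larger among libraries with no C number than among C1 and C2 libraries, by 1.39 on the log2 scale in a test of the interaction (edgeR adjusted p = 0.0452), and the number of control libraries in the former is 1. What the label sets stand for is not given in the labels, and their part in this difference was not tested.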

How the results depend on the processing

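Over 16 alternatives the 9 tested hyaluronan genes gave 144 values, of which 116 kept direction and side of the threshold, 8 lost a call (7 of Prg4 and 1 of Vcan), 7 gained one (3 of these among libraries with no C number, where the control is 1 library) and 13 changed sign. The sign changes were in genes whose reported value was near 0, namely Has2 (-0.12), Hyal2 (0.02) and Cd44 (0.01). Has2 was not stable, with -0.85 to 0.62 over the alternatives. It was 0.53 by limma-voom, 0.14 under the replicate block, 0.46 among C1 and C2 libraries and 0.62 without control 3. Hyal2 was at -0.10 among C1 and C2 libraries and -0.04 to -0.03 without control 2, control 3 or OB 3. Cd44 was at -0.05 with the label-set block, -0.17 among libraries with no C number, and -0.12 to -0.07 without control 1, control 2 or OB 3. Leaving out 1 library moved Has2 over -0.45 to 0.62, Hyal2 over -0.04 to 0.10 and Cd44 over -0.12 to 0.22, and gave 0 to 2 hyaluronan genes higher and 0 to 1 lower, 1 to 8 pathway genes higher and 0 to 3 lower, and 190 to 575 genes higher and 104 to 703 lower over all genes. Over all genes DESeq2 called 1292 higher and 1128 lower, limma-voom 1247 and 1081, the label-set block 1433 and 1256, C1 and C2 libraries 1030 higher, and libraries with no C number 3052 and 3413. Hyaluronan genes called higher numbered 1 under the replicate block, and those called lower 1 with the label-set block, 1 among C1 and C2 libraries and 2 among libraries with no C number. Pathway genes called lower numbered 2 with no filter, 5 by DESeq2, 3 by limma-voom, 2 under the replicate block, 6 with the label-set block, 3 among C1 and C2 libraries and 14 among those with no C number, and those called higher 15 with the label-set block and 27 among the last. Over all genes, 667 were called higher and 574 lower as reported, 724 and 681 with no filter, and 831 and 522 under the replicate block. Among C1 and C2 libraries 560 were called lower. The cause of these differences was not tested. From raw counts in place of per-length levels Has2 held 62.8% of the synthases in OB, Hyal2 52.5% of its family in control and 57.4% in OB, and Vcan 99.9% of the matrix genes in OB, where per-length levels gave 99.5%. The replicate block changed no other call of these 9 genes. For Hapln1, with 0 to 8 counts per library, depth limits precision.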
